A study of Ovis aries with 12 samples.

Results

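Limb bud patterning genes were read in 12 RNA-seq libraries of whole sheep embryos. The set was given by name and holds 10 genes, which are PRRX1, PRRX2, MSX1, MSX2, TBX4, PITX1, LHX2, LHX9, SHH and GLI3. A gene was used where the name column of the deposited table, which lists 26247 genes, holds that symbol. Of the 10 genes, 9 were matched in this way and SHH was not analysed here. The rule is a list of names and uses no measured value, though the list was drawn up with earlier results of these data known.

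The study set embryos of Hulunbuir Short-tail Sheep, its experimental group, against embryos of Ujumqin sheep, its control group. There were 4 groups of 3 libraries each, namely Hulunbuir day 25, Hulunbuir day 16, Ujumqin day 25 and Ujumqin day 16, where the day is the age of the embryo. Both are Mongolian breeds, no treatment or engineered allele is named, and embryos were dissociated with enzymes before RNA was taken. The labels do not say whether a library holds 1 embryo or several. The p-values therefore reflect variation among these libraries alone, and this may be technical.

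A limb bud is a pouch of mesenchyme covered by ectoderm. Its outgrowth is kept up by fibroblast growth factors from the ridge at its tip, its front-to-back axis is set by SHH, a secreted hedgehog ligand made at the posterior margin, and GLI3 acts as a repressor where hedgehog signal is low. PRRX1 and PRRX2 mark limb mesenchyme, MSX1 and MSX2 respond to bone morphogenetic proteins, LHX2 and LHX9 act in distal mesenchyme, and PITX1 and TBX4 belong to the hindlimb. Each of these genes is also used elsewhere in the embryo. PRRX and MSX genes are used in the head and face, PITX1 in oral ectoderm, LHX2 in the forebrain and eye, LHX9 in the gonad, and GLI3 in the neural tube. In RNA from whole embryos these sources, and fewer cells of a type against less RNA per cell, cannot be told apart.

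The libraries held between 30464606 and 55455815 counts, with at most 39643588 in a day 25 library and at least 43131962 in a day 16 library. All 9 genes passed the filter on low counts, as did 16785 genes in all. The biological coefficient of variation was 20.55% among day 25 libraries and 50.38% among day 16 libraries. A fold change below is a log2 change of counts scaled by trimmed mean of M values (TMM), with its standard error (SE), and a change is called where the adjusted p of edgeR's quasi-likelihood test is under 0.05. Levels are in FPKM, the authors' values per length and library, which can be compared between genes. On that scale the median log2 difference over all genes was 0.36 for Hulunbuir minus Ujumqin at day 25 (0.04 with TMM), and 0.13 and -0.15 for day 25 minus day 16 in Hulunbuir and in Ujumqin.

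PITX1 had the highest mean level of the 9 genes in each of the 4 groups, and LHX9 had the lowest. The mean PITX1 level was 43.2 ± 2.4 FPKM in Hulunbuir day 25 libraries, 91.4 ± 80.7 FPKM in Hulunbuir day 16 libraries, 60.5 ± 20.7 FPKM in Ujumqin day 25 libraries and 92.4 ± 35.1 FPKM in Ujumqin day 16 libraries (SD, n = 3 each). Its range met that of the next gene in the order only in the Hulunbuir day 16 libraries, where that gene was MSX1. Below PITX1 the order differed between groups. In Hulunbuir day 25 libraries MSX1, PRRX2, PRRX1 and LHX2 followed at 21.2, 20.2, 18.5 and 15.8 FPKM, and neighbours in that order overlapped. In Ujumqin day 25 libraries PRRX2 and MSX1, at 33.3 and 32.8 FPKM, overlapped each other and stood above the 6 genes ranked below them. In Ujumqin day 16 libraries MSX2, MSX1 and GLI3, at 22.9, 15.6 and 15.2 FPKM, came next to PITX1, and PRRX1 and LHX2 were at 2.2 and 1.64 FPKM.

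**Figure D1:**
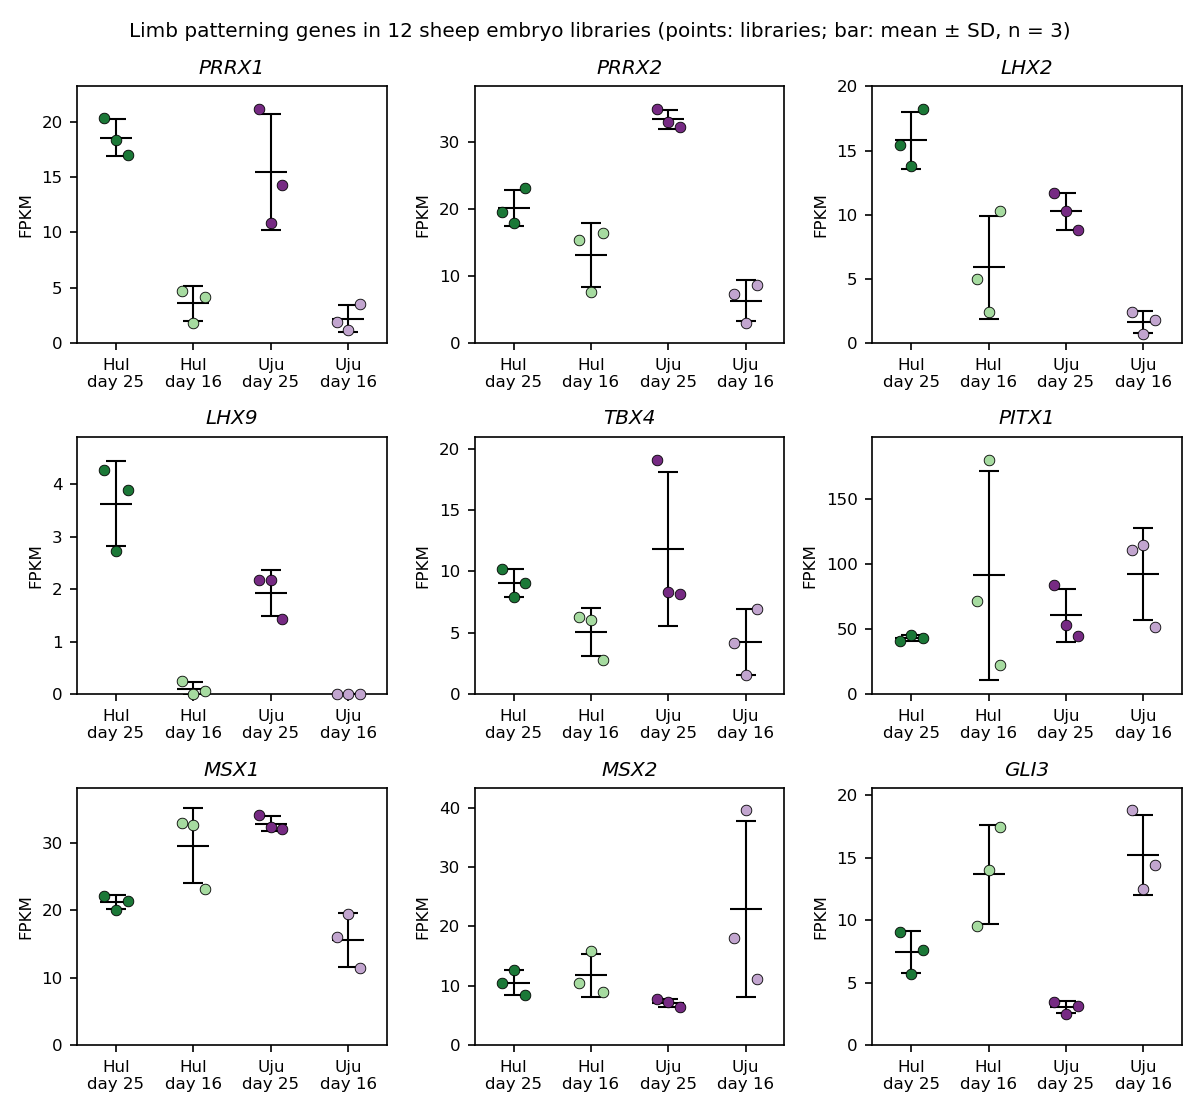
Levels of the 9 limb patterning genes in FPKM (vertical axes, linear) in Hulunbuir (Hul) and Ujumqin (Uju) libraries at day 25 and day 16. Points are libraries and bars are the mean ± SD of 3 libraries. PRRX1, LHX2 and LHX9 are higher at day 25 in both breeds, GLI3 is lower, and PRRX2 and MSX1 reach above 30 FPKM in Ujumqin day 25 libraries alone among the day 25 libraries.

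Between day 25 and day 16, 3 of the 9 genes rose and 2 fell in Hulunbuir embryos, and 6 rose and 2 fell in Ujumqin embryos. PRRX1, LHX2 and LHX9 rose in both breeds and GLI3 fell in both. MSX1 was called in opposite directions. Of all genes tested, 35.6% were called in Hulunbuir (16.3% higher and 19.3% lower) and 57.8% in Ujumqin (27.5% higher and 30.3% lower). FPKM ranges of the ages did not overlap for 7 of the 9 genes in Hulunbuir, against 52.7% of all genes, and for 8 of the 9 in Ujumqin, against 63.9% of all genes. The median log2 change of the 9 genes was 0.47 in Hulunbuir and 1.6 in Ujumqin, beside -0.03 and -0.05 over all genes tested.

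PRRX1, a paired-related homeobox factor of limb and facial mesenchyme, lies on chromosome 12 from 36339831 to 36434943 on the plus strand (Oar_v3.1). It had 20.3, 18.3 and 17.0 FPKM in Hulunbuir day 25 libraries, against 4.7, 1.82 and 4.19 FPKM in Hulunbuir day 16 libraries. In Ujumqin it had 21.1, 10.8 and 14.3 FPKM at day 25, against 1.88, 1.2 and 3.52 FPKM at day 16. All 6 day 25 libraries lay above all 6 day 16 libraries. PRRX1 rose by 2.22 ± 0.41 (SE, log2) in Hulunbuir, with an adjusted p of 0.00196, and by 2.91 ± 0.42 in Ujumqin, with an adjusted p of 0.000161.

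PRRX2, its paralog with overlapping expression in limb mesenchyme, lies on chromosome 3 from 6759786 to 6762262 on the minus strand. It had 19.5, 17.9 and 23.1 FPKM in Hulunbuir day 25 libraries, against 15.4, 7.62 and 16.4 FPKM in Hulunbuir day 16 libraries. In Ujumqin it had 34.9, 32.9 and 32.2 FPKM at day 25, against 7.32, 2.93 and 8.69 FPKM at day 16. The ages did not overlap in either breed, but the gap was narrow in Hulunbuir. The log2 change was 0.47 ± 0.33 in Hulunbuir, which was not called (adjusted p = 0.291), and PRRX2 rose by 2.52 ± 0.35 in Ujumqin (adjusted p = 0.000115).

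LHX2, a LIM homeodomain factor that keeps distal limb mesenchyme responsive to ridge signals, lies on chromosome 3 from 11688347 to 11707288 on the minus strand. It had 15.4, 13.8 and 18.2 FPKM in Hulunbuir day 25 libraries, against 4.97, 2.45 and 10.3 FPKM in Hulunbuir day 16 libraries. In Ujumqin it had 11.7, 10.3 and 8.77 FPKM at day 25, against 2.44, 0.733 and 1.76 FPKM at day 16. The ages did not overlap in either breed. LHX2 rose by 1.32 ± 0.43 in Hulunbuir (adjusted p = 0.0341) and by 2.75 ± 0.46 in Ujumqin (adjusted p = 0.000411). The Hulunbuir call was lost without any 1 of the 3 Hulunbuir day 25 libraries or without Hulunbuir day 16 replicate 1 or 2, where the adjusted p reached 0.0984.

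LHX9, a LIM homeodomain factor with a role in distal limb mesenchyme and in the early gonad, lies on chromosome 12 from 74963845 to 74975433 on the plus strand. It had 225, 118 and 190 counts in Hulunbuir day 25 libraries, against 16, 0 and 4 counts in Hulunbuir day 16 libraries. Ujumqin day 25 libraries had 95, 89 and 64 counts, and each of the 3 Ujumqin day 16 libraries had 0 counts. In FPKM the day 25 levels were 3.63 ± 0.816 in Hulunbuir and 1.93 ± 0.427 in Ujumqin (SD, n = 3 each). LHX9 was thus present at day 25 and at or near 0 at day 16 in both breeds. In Hulunbuir it rose by 4.92 ± 0.91 (adjusted p = 0.00302). In Ujumqin the mean of 2.84 CPM (counts scaled to library size with TMM) at day 25 was at least 46.5-fold higher than the 0.0611 CPM that a floor of 3 counts per library allows at day 16 (adjusted p = 0.000241). Such floors cover counting error only.

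TBX4, a T-box factor of the hindlimb and of lung and allantois mesenchyme, lies on chromosome 11 from 11172365 to 11198851 on the minus strand. It had 10.2, 7.9 and 9.03 FPKM in Hulunbuir day 25 libraries, against 6.29, 6.03 and 2.81 FPKM in Hulunbuir day 16 libraries. Its levels in Ujumqin were 19.1, 8.3 and 8.16 FPKM at day 25, against 4.18, 1.59 and 6.93 FPKM at day 16. Every day 25 library lay above the day 16 libraries of its breed, and Ujumqin day 25 replicate 1 stood well above the other two. The change was 0.61 ± 0.50 in Hulunbuir and was not called (adjusted p = 0.365). TBX4 rose by 1.60 ± 0.51 in Ujumqin (adjusted p = 0.0189), and the call was lost without Ujumqin day 25 replicate 1 (adjusted p = 0.103) or Ujumqin day 16 replicate 1 (adjusted p = 0.0538).

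PITX1, a paired-like homeobox factor that acts upstream of TBX4 in the hindlimb, lies on chromosome 5 from 43827074 to 43829928 on the minus strand. It had 40.9, 45.7 and 43.1 FPKM in Hulunbuir day 25 libraries, against 71.8, 180.0 and 22.2 FPKM in Hulunbuir day 16 libraries. Its levels in Ujumqin were 83.9, 53.1 and 44.5 FPKM at day 25, against 111.0, 115.0 and 51.9 FPKM at day 16. The ages overlapped in both breeds, and the 3 Hulunbuir day 16 libraries spanned the whole range of the 12. The change was -1.38 ± 0.63 in Hulunbuir (adjusted p = 0.11) and -0.54 ± 0.62 in Ujumqin (adjusted p = 0.478), so neither was called. Without Hulunbuir day 16 replicate 3, the lowest of the 12, the Hulunbuir change was called lower (adjusted p = 0.00996).

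MSX1, a homeobox repressor of mesenchyme differentiation, lies on chromosome 6 from 103876946 to 103880880 on the minus strand. It had 22.1, 20.1 and 21.4 FPKM in Hulunbuir day 25 libraries, against 33.0, 32.6 and 23.2 FPKM in Hulunbuir day 16 libraries. Its levels in Ujumqin were 34.1, 32.4 and 32.0 FPKM at day 25, against 16.1, 19.4 and 11.4 FPKM at day 16. The ages did not overlap in either breed, with day 25 the lower one in Hulunbuir and the higher one in Ujumqin. MSX1 fell by 0.69 in Hulunbuir (SE 0.25, adjusted p = 0.0494) and rose by 1.16 ± 0.25 in Ujumqin (adjusted p = 0.00212). The Hulunbuir call lay at the threshold, and 15 of 23 alternatives lost it, with adjusted p up to 0.163 when 1 library was left out.

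MSX2, its paralog, which is also used in limb ectoderm and the skull, lies on chromosome 16 from 6490865 to 6495867 on the plus strand. It had 10.4, 12.6 and 8.43 FPKM in Hulunbuir day 25 libraries, against 10.4, 15.9 and 9.0 FPKM in Hulunbuir day 16 libraries. Ujumqin libraries had 7.74, 7.22 and 6.35 FPKM at day 25, against 18.1, 39.6 and 11.1 FPKM at day 16. The ages overlapped in Hulunbuir and did not in Ujumqin. MSX2 fell by 1.61 in Ujumqin (SE 0.45, adjusted p = 0.00942). The Hulunbuir value was -0.39 ± 0.44 (adjusted p = 0.514), and it was 0.04 without Hulunbuir day 16 replicate 2.

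GLI3, the zinc finger factor that turns into a repressor without hedgehog signal, lies on chromosome 4 from 79029288 to 79131016 on the plus strand. It had 9.05, 5.66 and 7.6 FPKM in Hulunbuir day 25 libraries, against 9.55, 14.0 and 17.5 FPKM in Hulunbuir day 16 libraries. Ujumqin libraries had 3.43, 2.5 and 3.16 FPKM at day 25, against 18.8, 12.5 and 14.4 FPKM at day 16. No day 25 library reached the day 16 libraries of its breed. GLI3 fell by 1.05 in Hulunbuir (SE 0.24, adjusted p = 0.00656) and by 2.23 in Ujumqin (SE 0.25, adjusted p = 3.03e-05). Both calls held in each of the 23 alternatives run.

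**Figure D2:**
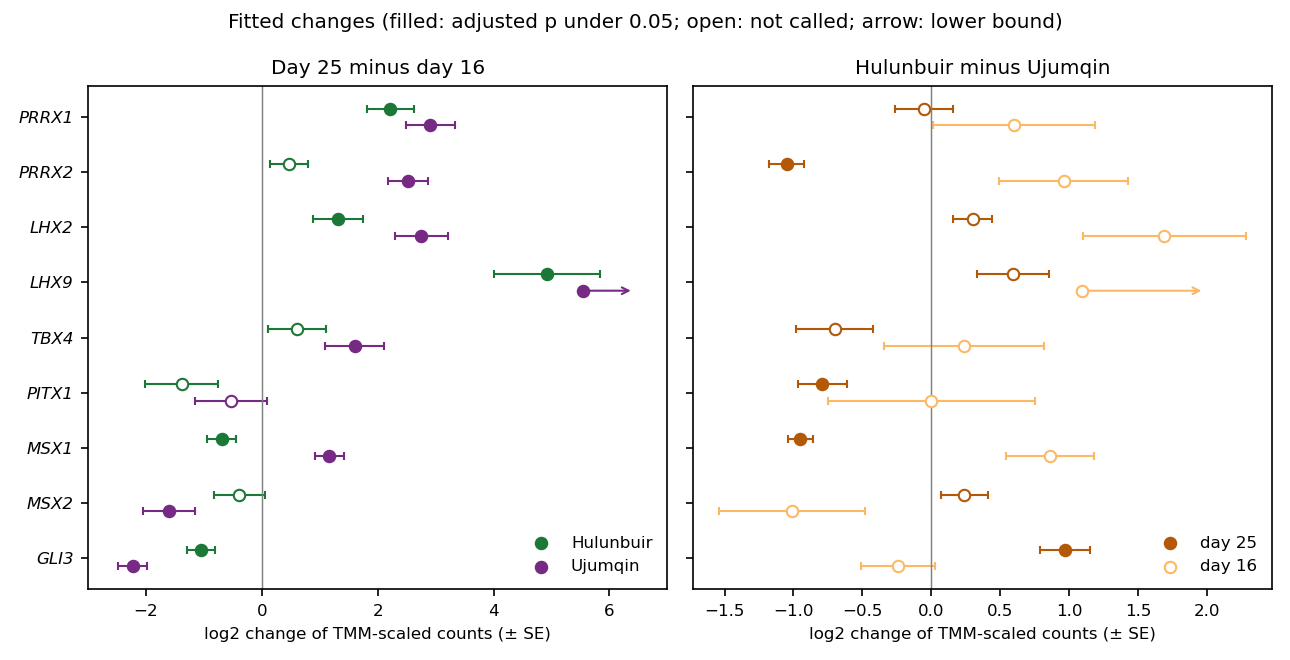
Fitted log2 changes of TMM-scaled counts ± SE (horizontal axes) for the 9 genes, by age within each breed (left) and by breed within each age (right). Filled points passed an adjusted p under 0.05. An arrow, drawn as a lower bound, is used for LHX9 where Ujumqin day 16 libraries had 0 counts. It rests on a floor of 3 counts per library and covers counting error in Ujumqin only. Hulunbuir day 16 libraries had 16, 0 and 4 counts, so at day 16 the arrow does not bound the breed difference (edgeR quasi-likelihood adjusted p = 0.303). PRRX2 and MSX1 are lower and GLI3 is higher in Hulunbuir at day 25, and at day 16 no point is filled.

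At day 25, PRRX2, MSX1 and PITX1 were lower and GLI3 was higher in Hulunbuir than in Ujumqin embryos. The other 5 genes were not called. Of all genes tested, 40.1% were called in this comparison, 20.5% higher and 19.6% lower, and the median log2 difference was -0.05 for the 9 genes and 0.04 for all genes. PRRX2 averaged 20.2 ± 2.65 FPKM in Hulunbuir day 25 libraries and 33.3 ± 1.38 FPKM in Ujumqin day 25 libraries (SD, n = 3 each), a log2 difference of -1.05 ± 0.13 (adjusted p = 0.000413). MSX1 averaged 21.2 ± 1.02 FPKM in Hulunbuir and 32.8 ± 1.11 FPKM in Ujumqin, a log2 difference of -0.95 ± 0.09 (adjusted p = 0.000107). For both genes the breeds did not overlap. GLI3 averaged 7.44 ± 1.7 FPKM in Hulunbuir and 3.03 ± 0.477 FPKM in Ujumqin, a log2 difference of 0.97 ± 0.18 (adjusted p = 0.00281), again without overlap. MSX1 and GLI3 kept their calls in all 18 alternatives, and PRRX2 in 17 of 18.

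The PITX1 difference at day 25 was -0.79 ± 0.18 (adjusted p = 0.00917), with means of 43.2 FPKM in Hulunbuir and 60.5 FPKM in Ujumqin. The FPKM ranges of the breeds overlapped and 7 of 18 alternatives lost the call. On the TMM scale of the test the breeds did not overlap, at 23.4 to 26.6 CPM in Hulunbuir and 34.0 to 59.2 CPM in Ujumqin. TBX4 differed by -0.70 ± 0.28 (adjusted p = 0.0811). PRRX1 differed by -0.05 ± 0.21 (adjusted p = 0.879). LHX2 (0.30 ± 0.14, adjusted p = 0.12), LHX9 (0.59 ± 0.26, adjusted p = 0.105) and MSX2 (0.24 ± 0.17, adjusted p = 0.307) were not called after TMM scaling. With library size alone as the scale, these 3 were called higher in Hulunbuir, and 80.5% of all calls at day 25 were then higher, against 51.1% with TMM. In FPKM the breeds did not overlap at day 25 for 6 of the 9 genes, against 57.8% of all genes.

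At day 16 none of the 9 genes was called between Hulunbuir and Ujumqin by edgeR's quasi-likelihood test. Of 100 simulated 4-fold changes this comparison recovered 14, so a gene not called may still differ. Only 3 of the 16785 genes were called there, or 0.0179%, while 19.0% of genes had an unadjusted p under 0.05. That count was 306 without Ujumqin day 16 replicate 3 and 0 without any 1 of the other 5 day 16 libraries. Among the 9 genes LHX2 and MSX1 had such an unadjusted p, at 0.0239 and 0.0307. LHX2 averaged 5.9 ± 4.01 FPKM in Hulunbuir day 16 libraries and 1.64 ± 0.86 FPKM in Ujumqin day 16 libraries (SD, n = 3 each), a log2 difference of 1.69 ± 0.59 (adjusted p = 0.202). MSX1 averaged 29.6 ± 5.53 FPKM in Hulunbuir and 15.6 ± 3.99 FPKM in Ujumqin, a log2 difference of 0.86 ± 0.32 (adjusted p = 0.22). LHX2 and MSX1 were also the 2 genes whose FPKM ranges did not overlap between breeds, against 23.5% of all genes. This depended on the scale, since with TMM the ranges of MSX1 overlapped and those of LHX2 and PRRX2 did not. With the replicate number as a block, 279 genes (1.66%) were called at day 16 and still none of the 9. In a single fit of all 12 libraries, 14.3% of genes were called at day 16, with LHX2, LHX9 and MSX1 higher in Hulunbuir. With the block added to that fit, LHX2, MSX1 and PRRX2 (adjusted p = 0.0493) were called higher and LHX9 was not. DESeq2 called 1646 genes, none of them among the 8 members it gave an adjusted p.

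The change with age differed between the breeds for 3 genes. The difference, Hulunbuir minus Ujumqin, was -2.05 ± 0.47 for PRRX2 (adjusted p = 0.0161), -1.85 ± 0.35 for MSX1 (adjusted p = 0.00689) and 1.17 ± 0.34 for GLI3 (adjusted p = 0.0396). Of all genes 16.0% were called in this test, 7.68% with a positive and 8.34% with a negative difference. PRRX2 rose in Ujumqin and was not called in Hulunbuir, MSX1 changed in opposite directions, and GLI3 fell in both breeds and fell further in Ujumqin. The GLI3 call was lost in 8 of 22 alternatives, with adjusted p up to 0.105 when 1 library was left out. The other members were not called, among them LHX2 at -1.43 ± 0.61 (adjusted p = 0.131) and MSX2 at 1.22 ± 0.62 (adjusted p = 0.198). Of 100 simulated 4-fold differences in age change this test recovered 31, so members not called may still differ.

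Ratios between related genes, which do not depend on how libraries are scaled, also varied. The FPKM of PRRX1 over that of PRRX2 was 1.04, 1.02 and 0.736 in Hulunbuir day 25 libraries, against 0.306, 0.239 and 0.255 in Hulunbuir day 16 libraries. In Ujumqin the ratio was 0.605, 0.329 and 0.443 at day 25, against 0.257, 0.41 and 0.405 at day 16. The ages were well apart in Hulunbuir and overlapped in Ujumqin. Over both breeds the mean log2 ratio of counts was 1.06 higher at day 25, with p = 0.02 in an exact two-sided permutation test of age within breed and 0.05 after adjustment over 5 ratios, which does not pass a threshold of under 0.05.

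MSX1 over MSX2 was 4.4, 4.49 and 5.04 in Ujumqin day 25 libraries, against 0.887, 0.489 and 1.04 in Ujumqin day 16 libraries. In Hulunbuir it was 2.12, 1.6 and 2.54 at day 25, against 3.16, 2.05 and 2.58 at day 16. The ages were far apart in Ujumqin and overlapped in Hulunbuir, and over both breeds the exact permutation p was 0.085 (0.142 adjusted). LHX2 over LHX9 was lower at day 25 by 4.79 on the log2 scale, with the smallest p that the 400 permutations can give, 0.005 (exact, 0.025 adjusted). With LHX9 at 0 counts in 4 day 16 libraries, the size of that difference depends on the 0.5 added to each count.

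TBX4 was set against TBX5, the forelimb T-box factor, as FPKM ratios. In Hulunbuir the ratio was 0.899, 0.721 and 0.797 at day 25, against 0.549, 0.586 and 0.135 at day 16, and every Hulunbuir library had less TBX4 than TBX5. In Ujumqin it was 1.59, 1.32 and 0.936 at day 25, against 1.48, 1.88 and 0.968 at day 16. The ages did not overlap in Hulunbuir and overlapped in Ujumqin. Over both breeds the change with age was not called (log2 difference 0.52, exact permutation p = 0.27).

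**Figure D3:**
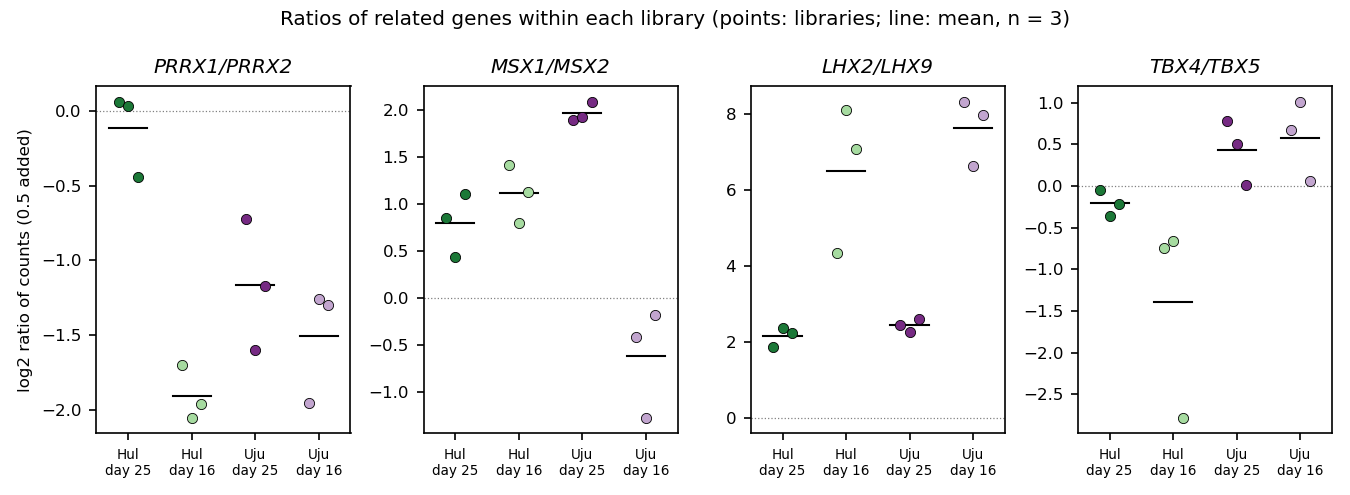
Log2 ratios of counts, with 0.5 added to each, for 4 pairs of related genes in Hulunbuir (Hul) and Ujumqin (Uju) libraries at day 25 and day 16. Points are libraries and lines are means of 3. The PRRX1 to PRRX2 and TBX4 to TBX5 ratios separate the ages in Hulunbuir alone. The MSX1 to MSX2 ratio separates them in Ujumqin alone, and the LHX2 to LHX9 ratio in both breeds.

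The wider hedgehog pathway, of which GLI3 is one end, was read in 16 of 21 listed genes. In Hulunbuir 3 rose with age, 5 fell and 8 were not called, and in Ujumqin 6 rose, 6 fell and 4 were not called. The share called was 50.0% in Hulunbuir and 75.0% in Ujumqin, against 35.6% and 57.8% of all genes. PTCH1, the hedgehog receptor and a target of the pathway, averaged 3.8 FPKM in Hulunbuir day 25 libraries against 18.7 FPKM at day 16, and 1.53 FPKM in Ujumqin day 25 libraries against 11.6 FPKM at day 16. It fell by 2.43 in Hulunbuir (adjusted p = 0.000329) and by 2.77 in Ujumqin (adjusted p = 4.8e-05), in the same direction as GLI3. IHH, a hedgehog ligand of gut endoderm and cartilage, fell by 3.97 and by 5.31 in Hulunbuir and Ujumqin. SCUBE3 fell in both breeds, while SCUBE1 and SCUBE2 rose in both, by 1.02 and 1.55 in Hulunbuir and by 1.62 and 2.05 in Ujumqin. DISP1, which releases hedgehog ligand from cells, also rose in both, by 0.69 in Hulunbuir and 1.56 in Ujumqin. HHIP, a decoy for hedgehog ligand, fell by 1.69 in Hulunbuir and by 0.81 in Ujumqin (adjusted p = 0.0155), where the call was lost without Ujumqin day 25 replicate 1 or Ujumqin day 16 replicate 3 (adjusted p up to 0.0693).

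GLI1, the activator and target of the pathway, averaged 8.12 FPKM in Hulunbuir day 25 libraries against 7.85 FPKM at day 16, and 10.4 FPKM in Ujumqin day 25 libraries against 3.96 FPKM at day 16. It rose by 1.51 in Ujumqin (adjusted p = 0.000176) and was not called in Hulunbuir, and its age changes differed between breeds by -1.60 (adjusted p = 0.00748). DISP1 and KIF7 were also called in that test, but lost the call with library size as the scale. At day 25, 7 of the 16 genes were higher in Hulunbuir and 4 lower, or 68.8% called, against 40.1% of all genes. PTCH1 (0.98, adjusted p = 0.0023), SMO, the signal transducer (0.83, adjusted p = 0.000294), and SPOP (0.75, adjusted p = 0.00146) were higher with GLI3, and GLI1 was lower (-0.68, adjusted p = 0.000974). At day 16 none of the 16 was called.

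Genes of limb and flank mesenchyme rose with age more often than they fell. Of 19 tested, 7 rose with age and 1 fell in Hulunbuir, with a median log2 change of 1.05. In Ujumqin 12 rose and 1 fell, with a median of 2.2. Of all genes, 16.3% rose and 19.3% fell in Hulunbuir, and 27.5% and 30.3% in Ujumqin. Other marker lists rose too, namely head mesenchyme (6 rose and 0 fell in Hulunbuir, 10 and 1 in Ujumqin), neural tube (3 and 0, 8 and 0) and somite (2 and 0, 7 and 0). Trophoblast (1 and 6, 0 and 10) and heart markers (0 and 7, 1 and 3) fell more often. TWIST2, a basic helix-loop-helix factor of mesenchyme, rose by 2.80 in Hulunbuir (adjusted p = 0.000465) and by 3.76 in Ujumqin (adjusted p = 2.92e-05). TWIST1 averaged 115.0 FPKM in Hulunbuir day 25 libraries against 49.7 FPKM at day 16, and 174.0 FPKM in Ujumqin day 25 libraries against 14.0 FPKM at day 16. It rose by 1.10 in Hulunbuir (adjusted p = 0.0287) and by 3.75 in Ujumqin (adjusted p = 1.58e-05). The Hulunbuir call was lost without any 1 Hulunbuir day 25 library or without Hulunbuir day 16 replicate 1 or 2 (adjusted p up to 0.0799). Its age changes differed between breeds by -2.65 (adjusted p = 0.00645). SHOX2, a homeobox gene of proximal limb, rose by 2.40 in Hulunbuir and by 2.46 in Ujumqin. IRX5 rose by 4.24 in Ujumqin and was not called in Hulunbuir. At day 25 between breeds 4 of the 19 were higher in Hulunbuir and 6 lower, or 52.6% called, against 40.1% of all genes. TWIST1 was lower (-0.91, adjusted p = 0.000324) and SOX9, a cartilage factor, was higher (1.19, adjusted p = 0.00867).

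**Figure D4:**
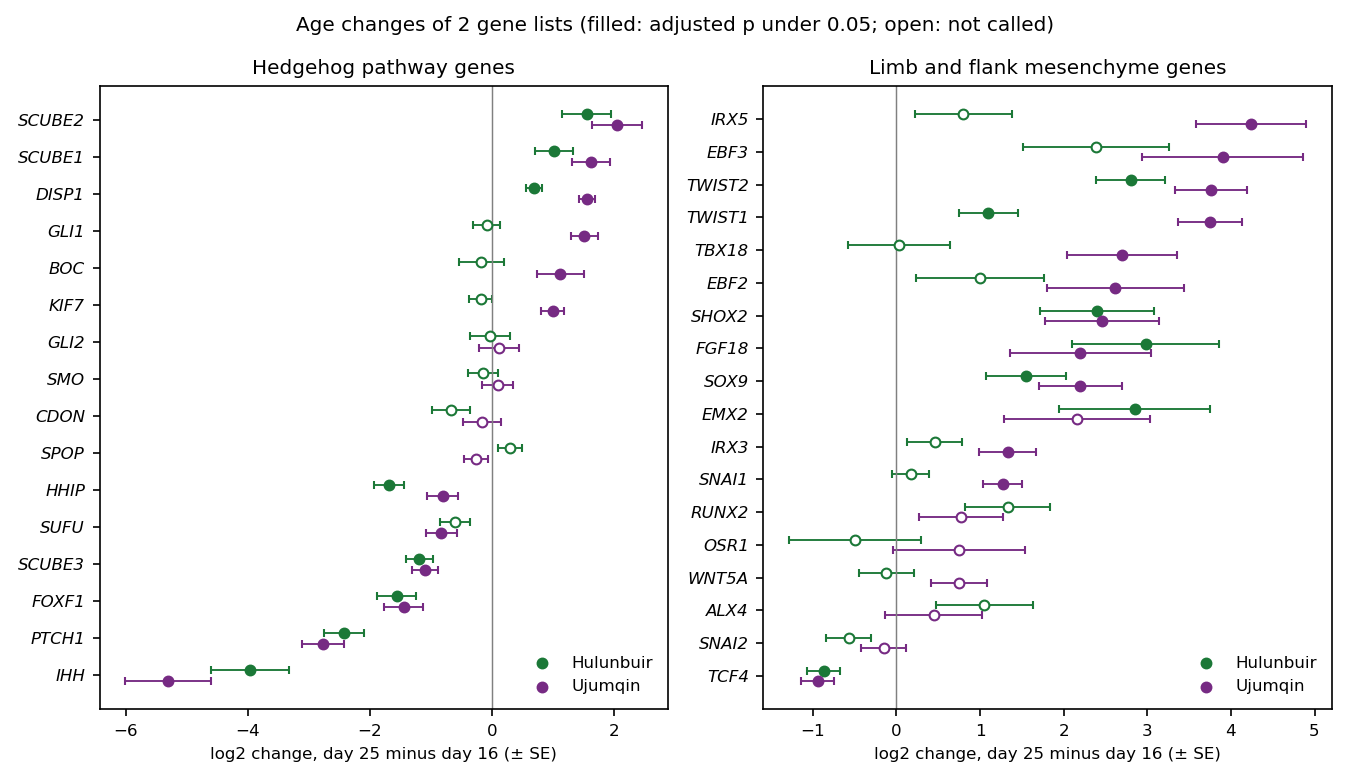
Log2 changes of day 25 over day 16 ± SE (horizontal axes) for hedgehog pathway genes (left) and limb and flank mesenchyme genes (right) in Hulunbuir and Ujumqin embryos, with filled points at an adjusted p under 0.05. PTCH1 and IHH lie lowest in both breeds, TWIST1 and IRX5 lie further right in Ujumqin than in Hulunbuir, and TBX15, which had 0 counts in Hulunbuir day 16 libraries, is not drawn.

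Genes that set up the limb field did not rise together. Of 16 tested, none rose and 4 fell with age in Hulunbuir, and 5 rose and 2 fell in Ujumqin. The share called was 25.0% in Hulunbuir and 43.8% in Ujumqin, below the 35.6% and 57.8% of all genes. SALL4, a zinc finger factor of stem cells and early limb, fell by 3.36 in Hulunbuir and by 3.52 in Ujumqin. FGF10, the mesenchymal signal that starts limb outgrowth, fell by 1.56 in Hulunbuir (adjusted p = 0.0135) and by 2.01 in Ujumqin (adjusted p = 0.00191). SALL1 fell by 2.01 in Hulunbuir, and MEIS1 and HOXB5, factors of the proximal limb and its field, rose by 2.70 and 1.39 in Ujumqin. At day 25, 4 of the 16 were higher in Hulunbuir and 3 lower, or 43.8% called, near the 40.1% of all genes. SALL4 (1.54) and ISL1, a hindlimb field factor (1.02), were among the higher ones.

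Of 9 ridge genes tested, 3 rose and 2 fell with age in Hulunbuir and 4 rose and 2 fell in Ujumqin. The share called was 55.6% in Hulunbuir and 66.7% in Ujumqin, against 35.6% and 57.8% of all genes. FGF8, the main ridge growth factor, averaged 1.78 FPKM in Hulunbuir day 25 libraries against 1.67 FPKM at day 16, and 2.08 FPKM in Ujumqin day 25 libraries against 0.546 FPKM at day 16. It rose by 2.04 in Ujumqin (adjusted p = 0.00194) and was not called in Hulunbuir. DLX6 rose by 2.21 in Hulunbuir (adjusted p = 0.0197) and by 2.53 in Ujumqin, and the Hulunbuir call was lost without replicate 2 of either age (adjusted p up to 0.0575). LGR4, a receptor for R-spondins, fell by 2.05 in Hulunbuir and by 2.90 in Ujumqin. DLX5 and DLX6 were lower in Hulunbuir at day 25, by -1.28 and -1.30. Of 15 genes of the limb axes, 2 rose and 2 fell with age in Hulunbuir and 5 rose and 4 fell in Ujumqin. These were 26.7% and 60.0% called, beside the same shares of all genes, 35.6% and 57.8%. HOXD10 rose by 2.66 in Hulunbuir and 3.04 in Ujumqin, while BMP2 and ETV5 fell by 3.02 and 2.10 in Hulunbuir and by 3.71 and 2.69 in Ujumqin. ETV4, a target of fibroblast growth factors, rose by 0.87 in Hulunbuir (adjusted p = 0.0196) and by 1.71 in Ujumqin. The Hulunbuir call of ETV4 was lost without Hulunbuir day 25 replicate 1 or 2 or Hulunbuir day 16 replicate 3 (adjusted p up to 0.0589). CYP26B1, which breaks down retinoic acid in the distal limb, rose by 2.86 in Ujumqin and was not called in Hulunbuir. At day 25, 1 of the 15 was higher in Hulunbuir and 7 were lower, or 53.3% called, against 40.1% of all genes. BMP4 was among the lower ones (-0.59, adjusted p = 0.000881). Of the 11 such day 25 differences named for hedgehog and list genes, 9 were no longer called in a single fit of all 12 libraries. None of these ridge, field, axis and mesenchyme genes was called between breeds at day 16.

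Levels of marker lists for other tissues also differed with age and breed. Neural tube markers, 8 of 14 listed, averaged 5.05 to 5.16 log2(FPKM + 1) in Hulunbuir day 25 libraries against 2.02 to 4.17 at day 16, and 4.54 to 4.8 in Ujumqin day 25 libraries against 1.9 to 2.56 at day 16, with none at 0 in a whole group. Head mesenchyme markers, 15 of 16, averaged 2.94 to 3.02 in Hulunbuir at day 25 against 1.0 to 2.24 at day 16, and 2.67 to 2.72 in Ujumqin at day 25 against 1.29 to 1.58 at day 16. Somite markers, 9 of 10, averaged 3.12 to 3.19 in Hulunbuir at day 25 against 0.89 to 2.37 at day 16, and 2.5 to 2.69 in Ujumqin at day 25 against 0.49 to 1.53 at day 16, with MYOG at 0 in Hulunbuir day 16 and MYOD1 at 0 in Ujumqin day 16. Trophoblast markers, 12 of 14, ran the other way. They averaged 2.61 to 2.71 in Hulunbuir at day 25 against 3.25 to 3.93 at day 16, and 2.69 to 2.94 in Ujumqin at day 25 against 4.05 to 5.91 at day 16. The part of these tissues in the changes of the limb genes was not tested.

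Forebrain and eye markers, 11 of 12, which bear on LHX2, averaged 1.38 to 1.58 in Hulunbuir day 25 libraries against 0.45 to 1.36 at day 16, and 1.38 to 1.6 in Ujumqin day 25 libraries against 0.51 to 0.6 at day 16. FEZF2 was at 0 in Hulunbuir day 16 libraries, and SIX6 in Ujumqin day 16 libraries. Mesonephros and gonad markers, 9 of 10, which bear on LHX9, averaged 2.22 to 2.25 in Hulunbuir at day 25 against 1.37 to 2.32 at day 16, and 1.68 to 2.1 in Ujumqin at day 25 against 0.9 to 1.9 at day 16. Of that list NR5A1 alone was at 0 in a whole group, Ujumqin day 25. EMX2 and OSR1 averaged 5.19 and 13.2 FPKM there, but neither is particular to that list. EMX2 is also among the forebrain and eye markers, and OSR1 among the limb and flank mesenchyme genes. Oral and pituitary markers, all 10, which bear on PITX1, averaged 1.44 to 1.47 in Hulunbuir at day 25 against 0.98 to 1.17 at day 16, and 1.4 to 1.54 in Ujumqin at day 25 against 0.81 to 0.95 at day 16, with POU1F1 at 0 in every group. The part of these tissues in LHX2, LHX9 and PITX1 was not tested.

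Erythroid markers, 9 of 10, set the breeds apart at day 25, at 7.45 to 7.49 in Hulunbuir and 4.64 to 4.69 in Ujumqin, and were at 1.96 to 2.96 in Hulunbuir and 4.7 to 6.62 in Ujumqin at day 16. Yolk sac and liver markers, all 12, were at 8.12 to 8.24 in Hulunbuir and 6.21 to 6.75 in Ujumqin at day 25, and at 6.36 to 7.83 in Hulunbuir and 8.77 to 9.82 in Ujumqin at day 16. Heart markers, 7 of 10, were at 4.95 to 5.11 in Hulunbuir at day 25 against 6.25 to 6.97 at day 16, and at 4.2 to 4.29 in Ujumqin at day 25 against 4.39 to 5.21 at day 16. Leukocyte markers, all 10, were at 1.26 to 1.32 in Hulunbuir at day 25 against 0.62 to 0.67 at day 16, and at 0.8 to 0.9 in Ujumqin at day 25 against 0.98 to 1.34 at day 16. Notochord and floor plate markers, 10 of 13, were at 1.7 to 1.82 in Hulunbuir at day 25 against 1.98 to 2.1 at day 16, and at 1.33 to 1.53 in Ujumqin at day 25 against 1.79 to 1.92 at day 16. Endometrium markers, 7 of 10, were at 1.95 to 2.1 in Hulunbuir at day 25 against 1.58 to 1.95 at day 16, and at 1.94 to 2.2 in Ujumqin at day 25 against 1.16 to 1.87 at day 16. PAEP of that list was at 0 in every group. Of the 4 endometrium markers tested, 1 rose and 1 fell with age in Hulunbuir, and 3 rose and 1 fell in Ujumqin. Of all genes, 35.6% and 57.8% were called with age in the 2 breeds. Hulunbuir day 16 replicate 2, which had the lowest PRRX1, PRRX2 and LHX2 and the highest PITX1 of its group, also had the lowest neural tube and somite levels (2.02 and 0.89) and the highest yolk sac and liver level (7.83). Ujumqin day 16 replicate 2, which had the lowest PRRX1, PRRX2, LHX2 and TBX4 and the highest MSX2, had the highest trophoblast level of all libraries (5.91). Their part in the values of these libraries was not tested.

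Across the 12 libraries, log2(FPKM + 1) of PRRX1 went with that of LHX9 (Pearson r = 0.94), LHX2 (0.9) and PRRX2 (0.87), and PRRX2 ran against MSX2 (-0.93). MSX1 and MSX2 had an r of -0.4, and TBX4 and PITX1 one of -0.12. These values describe 12 libraries that share group and age, and they carry no test. By the same measure, over all named genes of at least 1 FPKM on average, the nearest to TBX4 were HOXC10 (0.929), BST-2B (0.91) and HOXA10 (0.902). The nearest to LHX9 were DLX1 (0.988), PSMB8 and EIPR1 (0.986 each). PITX1 lay nearest to RBP4 (0.933), APOE (0.913) and ARSI (0.888), and MSX1 to CYTB (0.921), NFKB2 (0.909) and GSG1 (0.898). MSX2 lay nearest to ADIPOR1 (0.971), REXO2 (0.969) and CORO1B (0.957), and GLI3 to TSC1 (0.976), MTSS1 (0.975) and CPSF2 (0.972). PRRX1 lay nearest to DIPK1B (0.985), TAGLN3 (0.982) and MRPL32 (0.981), PRRX2 to BEX5 (0.984), BEX3 (0.982) and TSPAN3 (0.98), and LHX2 to WASF1 (0.988), AGBL5 (0.986) and ZNF423 (0.985).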

How the data were processed

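RNA-seq was done on 12 libraries, and the deposited table gives gene counts and FPKM on Oar_v3.1, the build named in the submitters' processing notes, which also name cutadapt 1.9 and FastQC. The authors' counts are whole numbers, and the authors' FPKM are scaled by gene length and library, as the values show. Where a count was 0 the deposited FPKM was 0.0001. The sources used here do not give the aligner, counter or strand setting.

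Counts were tested with edgeR 4.0.16 in R 4.3.3 (filterByExpr with a count minimum of 10, TMM, quasi-likelihood, Benjamini-Hochberg adjustment over 16785 genes). Breeds were compared in the 6 libraries of an age. Ages, and the difference between breeds in the age change, were tested in 1 fit of all 12 libraries. Alternatives used limma 3.58.1, DESeq2 1.42.0, other scalings and filters, and fewer libraries. Ratios used exact permutation with 0.5 added to counts, and 1 of the 5 ratios is not reported here. The procedure was tested on simulated data of 16785 genes, with 100 changed 2-fold and 100 changed 4-fold. Between breeds it recovered 1 and 14 of these at day 16, and 45 and 75 at day 25. With age it recovered 15 and 60 in Hulunbuir, and 12 and 65 in Ujumqin. For the difference in age changes it recovered 0 and 31. False calls numbered 1 to 6 per comparison. The adjusted p depends on how many genes change. Except between breeds at day 16, fewer genes were changed in the simulation than were called in these data. Recovery in the real tests may therefore differ. The members and lists were chosen with earlier results of these data known. From each list the text names up to 4 called genes per comparison and direction, by smallest adjusted p, and some were left out for space. TBX5 was named as the partner of a ratio, and a gene named for one breed's age change is also given for the other breed where it was called there. For each member the 3 genes of highest correlation are named. Same-numbered libraries of the breeds deviated together at day 16 (correlations of 0.181 to 0.367, all above a minimum of 0.1), a pairing seen in the data and carried by the labels' shared number alone.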

Additional observations from a re-analysis of the deposited data

Results flagged for a closer look

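The change with age differed between the breeds for 3 of the 9 limb patterning genes by the test of the difference itself, which called 16.0% of all genes. For PRRX2 the age change in Hulunbuir minus that in Ujumqin was -2.05 on the log2 scale (adjusted p = 0.0161). For MSX1 it was -1.85 (adjusted p = 0.00689), with the age change negative in Hulunbuir and positive in Ujumqin. For GLI3 it was 1.17 (adjusted p = 0.0396), with a fall in both breeds that was larger in Ujumqin. The GLI3 call was lost in 8 of 22 alternatives, among them voom with group weights (adjusted p = 0.0702).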

How the results depend on the processing

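Of 936 values of the 9 genes under alternatives, 850 kept their direction and their side of the threshold, 40 lost a call, 23 gained one and 23 changed sign. At day 25, a fit of all 12 libraries called 2 genes between breeds, against 4, with 2296 genes (13.7%) called in all (2084 with a replicate block), against 6734. At day 16 it called 3 genes (LHX2, LHX9 and MSX1) and, with a replicate block, 3 genes (LHX2, MSX1 and PRRX2), against 0, while genes called in all were 3 in the 6 libraries, 279 with a replicate block, 536 with voom, 1646 with DESeq2, 2396 and 2183 with all 12 libraries, 0 with limma on FPKM, and 0 to 306 with 1 library left out. The difference in age changes was called for 1399 to 3267 genes when 1 library was left out, against 2688. The cause of these differences in count was not tested. Leaving out 1 library gave 3 to 6 called genes for age in Hulunbuir, ratio differences of -5.33 to -4.39 for LHX2/LHX9 (adjusted p up to 0.05) and 0.95 to 1.17 for PRRX1/PRRX2. The replicate block on LHX2/LHX9 left -4.79 with an adjusted p of 0.156. A block leaves fewer arrangements than the 400 permutations, and so a larger smallest p. The loss of that call therefore cannot decide whether the ratio difference is weaker. Same-numbered libraries all correlated above 0.1 in the day 16 breed comparison only, and at day 25 the breeds' values were positive but smaller (0.0342 to 0.0636). In the others the block ended the call of GLI3 for the difference in age changes (adjusted p 0.0602) and made TBX4 lower between breeds at day 25 (adjusted p 0.0435), and it changed no other call of the 9 genes. Signs turned for values that were not called. PRRX1 between breeds at day 25 was 0.26 with library size, 0.3, 0.31 and 0.4 with limma on FPKM, and -0.23 to 0.2 with 1 library left out. PITX1 at day 16 was -0.01 with library size, -0.02 without a filter, -0.53 with voom, -0.39, -0.4 and -0.31 with limma on FPKM, -0.49 with the block, -0.22 with the block in 12 libraries, and -1.14 to 0.5 with 1 library left out. With 1 library left out, TBX4 at day 16 was -0.14 to 0.74, MSX2 with age in Hulunbuir -0.63 to 0.04, and the PITX1 difference in age changes -1.33 to 0.33. That of LHX9 was 0.53, 0.06 and 0.56 with limma on FPKM, where groups at 0 make it depend on the count added. The share of calls that were higher moved by over 10 points with library size or FPKM scaling. It was 80.5% to 87.6% at day 25, against 51.1%, 62.2% to 65.8% with age in Hulunbuir, against 45.7%, 32.1% with age in Ujumqin with rescaled FPKM, against 47.6%, and 73.6% to 76.2% for the difference in age changes, against 48.0%. Precision was lowest for LHX9, with 0 to 16 counts in day 16 libraries.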
